A study of Rattus norvegicus with 12 samples.

Results

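The circadian clock genes described here were Arntl, Clock, Per1, Per2, Per3, Cry1, Nr1d1, Bhlhe41, Dbp and Tef, chosen by gene symbol among the probes of a rat expression array and not by any measured value. All 10 genes were on the array, out of 35541 gene names it carries, through 13 of its 41012 probes. A probe was kept if every array of some group read it well above background. Of the 13 probes 12 passed, and all 10 genes had at least 1. The exception was 1 of the 3 Per3 probes, which was well above background on none of the 12 arrays. Bhlhe41 stands in the files under its older symbol Bhlhb3. Where a gene had several probes that passed (Per3 and Bhlhe41), the one with the highest mean signal stands for it, and the others are given beside it.

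The study compared the response of female and male liver cells to a glucocorticoid. Hepatocytes were isolated with collagenase from livers of female and male Sprague-Dawley rats aged 11 weeks. All cells had been plated for 24 h with serum and then held for 24 h without it, and each group was then exposed for 6 h. The 4 groups of 3 arrays were female cells with 100 nM dexamethasone, a synthetic glucocorticoid (the labels print the dose as nm), female cells with vehicle (0.01% ethanol), male cells with 100 nM dexamethasone and male cells with vehicle. Each array held the Cy3-labelled RNA of 1 sample. The sex is that of the sample titles, since a separate field of the labels reads male for all 12 samples. Separate animals or cultures are not named for the replicates, so a p-value here reflects sample-to-sample spread that may be technical.

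The mammalian clock is a feedback loop of transcription. BMAL1 (the protein of Arntl) and CLOCK pair up, bind E-box sequences and switch on the Per and Cry genes, whose proteins return to the nucleus and block that pair. The same pair drives Nr1d1, whose product REV-ERB alpha represses Arntl through sites it shares with the activating ROR receptors, and Dbp, which with Tef acts on D-box sequences of output genes. In liver this loop times glucose, bile acid and xenobiotic metabolism, and glucocorticoids are among the hormonal signals that set its phase.

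Levels are log2 processed intensities minus the array's 75th percentile, so 0 marks the 75th percentile of all probes, and they are compared only between arrays for the same probe. The probes that carry the main results were the following 60-base sequences, with positions on rat build rn3 as the files give them. Per1 was read at chr10:55881463-55882047, a span of 585 bases that holds the 60 bases of the probe. Arntl was read at chr1:171281903-171281962, Nr1d1 at chr10:87557535-87557889 and Bhlhe41 at chr4_random:1955459-1955518. No annotation of rn3 was used here, so what lies at these places is given by gene name alone.
Per1 probe: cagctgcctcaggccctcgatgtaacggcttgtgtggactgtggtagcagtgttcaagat
Arntl probe: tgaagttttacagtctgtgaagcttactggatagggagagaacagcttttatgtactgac
Nr1d1 probe: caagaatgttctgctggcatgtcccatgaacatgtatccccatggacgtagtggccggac
Bhlhe41 probe: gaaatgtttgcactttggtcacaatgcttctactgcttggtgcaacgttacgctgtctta

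The clock's own DNA letters were looked up in the 300-base promoter windows of RefSeq (build GRCr8, running from before a transcription start to just past it), which held 11 windows for 9 of the 10 genes, Arntl under the symbol Bmal1. 4 motifs were searched on both strands, the E-box CACGTG, the D-box TTATGTAA or TTACGTAA, AGGTCA, the core letters shared by REV-ERB and ROR receptors, and TGTTCT, part of the glucocorticoid receptor's element. The E-box, which reads the same on both strands, stood in the windows of 3 of these 9 genes (Bhlhe41, Tef and 1 of the 2 windows of Nr1d1), and in 6.42% of all 33469 windows. The D-box stood in that of Per2 (1.01% of all windows), AGGTCA in that of Arntl (16.2%) and TGTTCT in 1 of the 2 windows of Clock (20.7%). The windows of Per1, Per3 and Dbp held none of these letters, which says only that the letters are not in these windows. The windows of 4 genes are shown because they hold the letters through which the loop is known to act, with the match in capitals. They lie at chr1:176766078-176766377 on the plus strand for Arntl, and on the minus strand at chr4:180569306-180569605 for Bhlhe41, chr10:84229405-84229704 for Nr1d1 and chr9:99496944-99497243 for Per2. A match is a description of the sequence and not a bound site.
Arntl promoter, AGGTCA in capitals: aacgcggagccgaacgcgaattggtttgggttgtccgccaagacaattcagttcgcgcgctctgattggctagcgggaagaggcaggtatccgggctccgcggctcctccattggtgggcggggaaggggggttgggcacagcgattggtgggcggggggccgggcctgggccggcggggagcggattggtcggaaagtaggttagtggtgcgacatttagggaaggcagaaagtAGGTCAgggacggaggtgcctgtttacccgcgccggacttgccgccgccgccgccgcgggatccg
Bhlhe41 promoter, E-box in capitals: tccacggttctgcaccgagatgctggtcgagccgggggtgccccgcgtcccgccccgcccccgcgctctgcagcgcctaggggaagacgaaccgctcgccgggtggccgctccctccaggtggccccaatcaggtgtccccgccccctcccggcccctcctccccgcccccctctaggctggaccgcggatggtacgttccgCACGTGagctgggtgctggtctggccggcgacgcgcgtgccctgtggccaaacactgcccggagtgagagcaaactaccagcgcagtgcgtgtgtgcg
Nr1d1 promoter, E-box in capitals: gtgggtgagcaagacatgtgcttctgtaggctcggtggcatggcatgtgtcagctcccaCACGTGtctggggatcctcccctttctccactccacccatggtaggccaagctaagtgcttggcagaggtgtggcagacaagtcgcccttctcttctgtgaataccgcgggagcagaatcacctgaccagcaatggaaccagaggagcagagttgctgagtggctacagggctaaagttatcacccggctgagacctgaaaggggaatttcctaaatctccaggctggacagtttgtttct
Per2 promoter, D-box in capitals: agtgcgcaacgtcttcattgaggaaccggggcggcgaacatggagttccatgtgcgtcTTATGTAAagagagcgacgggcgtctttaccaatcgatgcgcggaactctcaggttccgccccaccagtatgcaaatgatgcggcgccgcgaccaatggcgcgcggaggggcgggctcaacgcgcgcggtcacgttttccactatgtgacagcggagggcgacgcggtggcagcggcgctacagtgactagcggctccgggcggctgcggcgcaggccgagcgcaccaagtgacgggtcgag

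Arrays lay on 3 slides, and the 4 arrays of slide 1 stood apart from the other 8. Slide 1 carried male dexamethasone replicate 1 together with all 3 arrays of male vehicle, with 45.7% to 66.5% of probes well above background, against 72.4% to 80.4% on the other arrays. The repeated probes of 1 array varied by a median of 13.4% to 20.2% on slide 1 and by 4.66% to 7.24% on the others. Slide 3 held the 3 female dexamethasone arrays and female vehicle replicate 3, so slide and treatment overlapped in part in both sexes. Slide 2 held replicates 1 and 2 of female vehicle and replicates 2 and 3 of male dexamethasone. No slide carried both sexes under the same treatment, so within a treatment sex and slide cannot be told apart. On female vehicle replicate 2, 176 probes were more than 4 log2 units below both other arrays of the group, against 2 to 6 probes on each of the other 11 arrays. Of their spots 174 lay within 25 rows and 10 columns of row 268, column 43 (the array has 532 rows and 85 columns), and none belonged to the 10 clock genes. The glucocorticoid targets Fkbp5 and Tsc22d3 rose in both sexes, by 2.83 and 1.95 in female cells and by 2.93 and 1.32 in male cells on the log2 scale. The titled sex was borne out by Obp3, a male-pattern liver gene that was well above background on all 6 male arrays and on none of the 6 female ones. All 7 hepatocyte markers were well above background on every array of every group. In each sex 1 of the 7 rose with dexamethasone and none fell. Kupffer cell markers were measured too, with summed linear levels of 27.6 to 46.7 in female dexamethasone and 23.4 to 40.0 in female vehicle arrays, and of 25.9 to 68.9 in male dexamethasone and 24.4 to 57.0 in male vehicle arrays (relative to the array's 75th percentile, 6 of 7 markers, none called for dexamethasone in either sex). Stellate cell and fibroblast markers summed to 3.16 to 5.65 in female dexamethasone, 5.48 to 11.2 in female vehicle, 1.16 to 4.36 in male dexamethasone and 1.05 to 4.03 in male vehicle arrays (6 of 7 markers). Of these 6 markers 1 fell with dexamethasone in female cells and none did in male cells. Under vehicle 4 were higher in female than in male cells, and under dexamethasone 2 were. On the male vehicle arrays 2 of the 6 were never well above background, so the male side rests in part on unmeasured levels. Of the other marker lists, 1 of 5 endothelial markers rose with dexamethasone in male cells. Under vehicle 1 of 6 Kupffer markers was higher and 1 of 4 cholangiocyte markers lower in female than in male cells. On the male vehicle arrays 2 of the 5 endothelial and 1 of the 6 Kupffer markers were never well above background. Over all probes 2.72% rose and 1.07% fell in female cells, and 5.45% and 4.75% in male cells. Between the sexes 13.9% were called under vehicle and 3.01% under dexamethasone. The part of these cell types in the results was not tested. In such bulk RNA fewer cells of a type and less RNA per cell cannot be told apart.

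Most of the clock genes did not pass the test for a dexamethasone response at 6 h, which does not show that they were unchanged. Per1 rose in both sexes, Arntl rose and Bhlhe41 fell in male cells, and no other member passed the test in either sex. In female cells 1 of the 10 genes rose and none fell by limma's test (adjusted p under 0.05), where 2.72% of all 30979 probes were called higher and 1.07% lower. In male cells 2 of the 10 rose and 1 fell, where 5.45% of probes were called higher and 4.75% lower. Of the 10 genes 2 had an unadjusted p under 0.05 in female cells (Per1 and Bhlhe41), where 16.9% of all probes did, and 6 in male cells, where 27.0% did. The median difference over the 10 genes was -0.0016 in female and 0.34 in male cells, beside -0.04 and -0.05 over all probes. The share of male calls that were higher depended on the scaling (53.5% of the calls, against 35.4% with array medians, 67.2% with quantile normalization and 24.0% with normexp background correction).

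**Figure D1:**
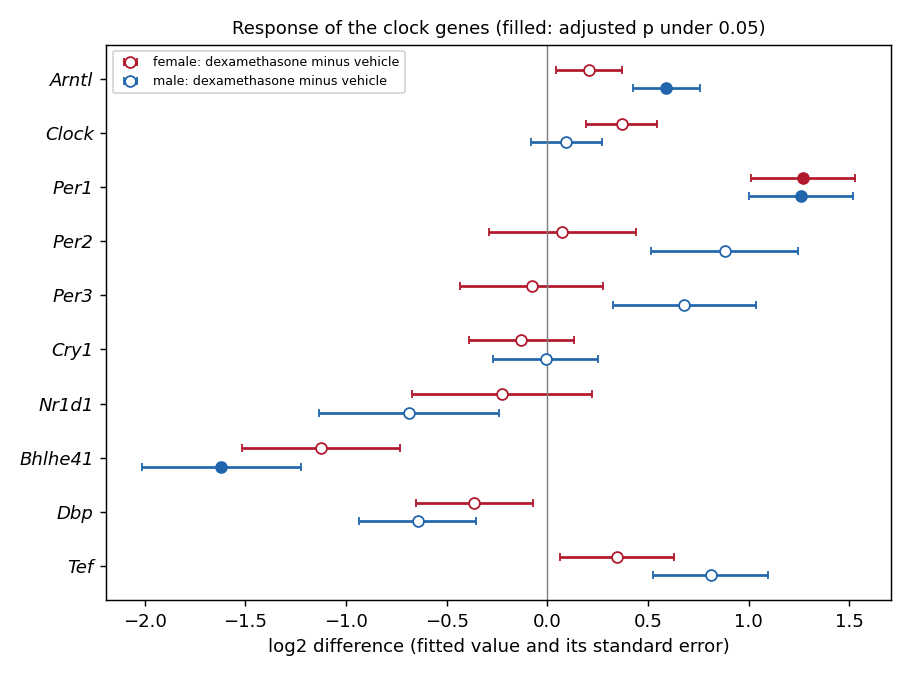
Fitted log2 difference, dexamethasone minus vehicle, for each of the 10 clock genes (1 probe a gene), in female cells (upper point, red) and male cells (lower point, blue), with its standard error as the bar. Filled points have an adjusted p under 0.05: Per1 in both sexes (1.27 in female and 1.26 in male cells), and Arntl (0.59) and Bhlhe41 (-1.62) in male cells.

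Per1, a repressor of the loop and a gene that many fast signals induce, gave the clearest response. In female cells its level was 0.02, -0.57 and -0.43 on the dexamethasone arrays and -1.40, -1.84 and -1.56 on the vehicle arrays. In male cells it was 0.07, -0.40 and 0.23 with dexamethasone and -1.11, -1.78 and -1.0 with vehicle. Every dexamethasone array lay above every vehicle array in both sexes. The rise was 1.27 ± 0.26 in female cells (SE, a 2.41-fold change, adjusted p = 0.0239 by limma) and 1.26 ± 0.26 in male cells (2.39-fold, adjusted p = 0.0139). Between arrays of the same replicate number the difference was 1.41, 1.27 and 1.13 in female cells and 1.18, 1.38 and 1.23 in male cells, so it was positive in 6 of 6 pairs. The female response minus the male one was 0.01 ± 0.36, with a 95% interval from -0.79 to 0.81.

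The size of the Per1 response moved little between ways of processing the arrays, and its call was lost under some of them. It ranged from 1.10 to 1.39 in female and from 1.02 to 1.44 in male cells over the alternatives run. With slide as a block it was 1.24 ± 0.40 in female (adjusted p = 0.217) and 1.36 ± 0.40 in male cells (adjusted p = 0.123). Within slide 3 (3 dexamethasone arrays and 1 vehicle array of female cells) it was 1.24 ± 0.28. Within slide 1 (1 and 3 of male cells) it was 1.36 ± 0.48. Only slide 1 held both male groups, and only slide 3 held both female groups. For each gene here the slide block therefore gives the same response as these slides alone. It rests on 1 array of a group and is not a separate check. Leaving out any 1 of the 6 female arrays put the female adjusted p between 0.0586 and 0.107. In male cells leaving out dexamethasone replicate 3 gave an adjusted p of 0.0511, and fitting the 2 male groups alone gave 0.0979.

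Per2, the paralog of Per1 and likewise a repressor, did not pass. Its level was 0.33, -0.15 and 0.16 with dexamethasone and 0.18, -0.12 and 0.05 with vehicle in female cells, and 0.70, 0.03 and 0.50 with dexamethasone and -0.52, -1.32 and 0.43 with vehicle in male cells. The groups overlapped in both sexes. The difference was 0.07 ± 0.36 in female cells (95% interval -0.73 to 0.88, adjusted p = 0.967) and 0.88 ± 0.36 in male cells (95% interval 0.08 to 1.68, adjusted p = 0.15). The male value rested on which vehicle arrays entered, since it was 0.46 without male vehicle replicate 2 (adjusted p = 0.354) and 1.33 without replicate 3 (adjusted p = 0.0153).

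Per3, whose part in the loop is minor, was dim. Its brightest probe was well above background on 1 of 3 male vehicle arrays and on all arrays of the other groups. The levels were -4.05, -4.15 and -4.89 with dexamethasone and -4.04, -4.22 and -4.59 with vehicle in female cells, and -4.02, -4.08 and -4.04 with dexamethasone and -5.37, -4.96 and -3.85 with vehicle in male cells. The difference was -0.08 ± 0.35 in female cells (adjusted p = 0.965) and 0.68 ± 0.35 in male cells (adjusted p = 0.247). Without male vehicle replicate 3, the only male vehicle array that measured the probe, the male difference was 1.12 (adjusted p = 0.0257), and under normexp background correction it was -0.21. The other Per3 probe that passed differed by 0.46 ± 0.40 in female and -0.04 ± 0.40 in male cells.

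Cry1, the partner of the PER proteins and the strongest repressor of the BMAL1 and CLOCK pair, kept overlapping levels. It was -0.22, 0.01 and 0.64 with dexamethasone and 0.02, 0.20 and 0.59 with vehicle in female cells. Male cells had 0.64, 0.27 and 0.73 with dexamethasone and 0.72, 0.19 and 0.75 with vehicle. The difference was -0.13 ± 0.26 in female cells (95% interval -0.70 to 0.45) and -0.01 ± 0.26 in male cells (95% interval -0.58 to 0.57).

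**Figure D2:**
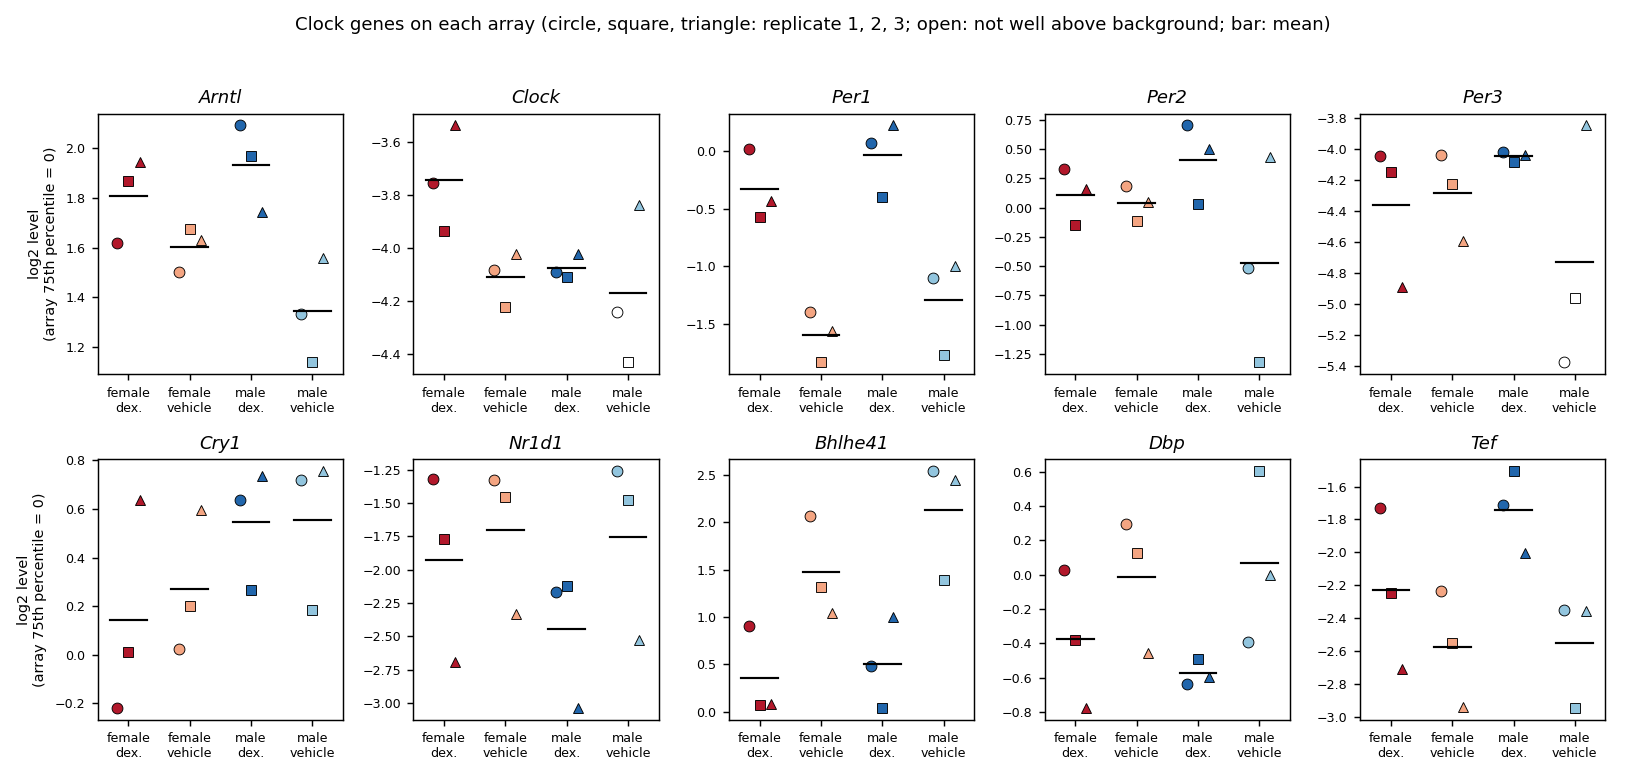
log2 level of the 10 clock genes on each of the 12 arrays (vertical axis, relative to the array's 75th percentile, with its own range in each panel), by group from left to right female dexamethasone, female vehicle, male dexamethasone and male vehicle. Circles, squares and triangles are replicates 1, 2 and 3, open symbols were not well above background and bars are group means; Per1 separates dexamethasone from vehicle in both sexes, and Nr1d1 spreads within every group.

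Among the activators, Arntl rose in male cells. Its female levels were 1.62, 1.87 and 1.94 with dexamethasone and 1.5, 1.67 and 1.63 with vehicle, and 1 dexamethasone array lay below 2 vehicle arrays. Its male levels were 2.09, 1.97 and 1.74 with dexamethasone and 1.33, 1.14 and 1.56 with vehicle, without overlap. The difference was 0.21 ± 0.17 in female cells (adjusted p = 0.633 by limma) and 0.59 ± 0.17 in male cells (1.51-fold, adjusted p = 0.0466). Between arrays of the same replicate number Arntl differed by 0.12, 0.20 and 0.31 in female cells. In male cells it differed by 0.76, 0.83 and 0.19. The female response minus the male one was -0.38 ± 0.23 (95% interval -0.90 to 0.13, adjusted p = 0.596), so a difference between the sexes was not shown.

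The male call of Arntl stood at the threshold. It was lost with the replicate number as a block (adjusted p = 0.0551, and 0.0535 with a block within each sex) and with slide as a block (0.75 ± 0.25, adjusted p = 0.160). It was also lost with array medians (0.48, adjusted p = 0.0848), normexp (0.0607), array weights (0.234) or the 2 male groups alone (0.236). Leaving out any array but male vehicle replicate 3 lost it too (adjusted p 0.0590 to 0.123 over these 11). Within slide 1 the difference was 0.75 ± 0.42. The direction was the same under all 26 alternatives, with values from 0.47 to 0.75.

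Clock, the partner of Arntl, was dim, and its probe was well above background on 1 of 3 male vehicle arrays. Its levels were -3.75, -3.93 and -3.54 with dexamethasone and -4.08, -4.22 and -4.02 with vehicle in female cells. They were -4.09, -4.11 and -4.02 with dexamethasone and -4.24, -4.43 and -3.84 with vehicle in male cells. The female groups did not overlap, yet the difference of 0.37 ± 0.18 did not pass (95% interval -0.02 to 0.76, adjusted p = 0.333). The male difference was 0.10 ± 0.18 (95% interval -0.30 to 0.49) and was negative under array medians, quantile normalization and normexp.

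Bhlhe41 encodes DEC2, a repressor that competes with BMAL1 and CLOCK for E-boxes, and it fell in male cells. The female levels were 0.91, 0.07 and 0.08 with dexamethasone and 2.06, 1.32 and 1.04 with vehicle. The male levels were 0.49, 0.04 and 1.00 with dexamethasone and 2.54, 1.39 and 2.45 with vehicle. The groups did not overlap in either sex. The difference was -1.12 ± 0.39 in female cells (a 2.18-fold lower level, adjusted p = 0.158) and -1.62 ± 0.39 in male cells (3.07-fold lower, adjusted p = 0.0280).

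Between arrays of the same replicate number Bhlhe41 differed by -1.16, -1.25 and -0.96 in female cells and by -2.05, -1.35 and -1.45 in male cells. With the replicate number as a block within each sex the female difference passed (adjusted p = 0.0183), with the planned block over all 4 groups it did not (adjusted p = 0.0708), and with array weights it was -1.34 (adjusted p = 0.0145). The male call did not hold with slide as a block (-1.64 ± 0.58, adjusted p = 0.188), with array weights (adjusted p = 0.178) or with the 2 male groups alone (0.10). It also failed without male vehicle replicate 1 (adjusted p = 0.0748) or 3 (0.0590), or without male dexamethasone replicate 1 (0.0628) or 2 (0.0996). Within slide 1 the male difference was -1.64 ± 0.58. Within slide 3 the female difference was -0.69 ± 0.41. The other Bhlhe41 probe, which was near background (well above it on 8 of 12 arrays, and on none of the male vehicle arrays), differed by -0.05 ± 0.34 in female and -1.01 ± 0.34 in male cells and passed in neither (adjusted p = 0.975 and 0.0836).

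Nr1d1, the REV-ERB alpha gene and a repressor of Arntl, spread widely within every group. Its level was -1.32, -1.77 and -2.69 with dexamethasone and -1.33, -1.45 and -2.34 with vehicle in female cells. Male cells had -2.17, -2.12 and -3.04 with dexamethasone and -1.26, -1.48 and -2.53 with vehicle. The difference was -0.22 ± 0.45 in female cells (95% interval -1.21 to 0.76, adjusted p = 0.904) and -0.69 ± 0.45 in male cells (95% interval -1.67 to 0.30, adjusted p = 0.356). Arrays of the same number deviated together within each sex, and between them Nr1d1 differed by 0.01, -0.32 and -0.36 in female cells and by -0.91, -0.64 and -0.51 in male cells. With the replicate number as a block the male difference passed (adjusted p = 0.0193, and 0.0261 with a block within each sex), and the female one did not (adjusted p = 0.481).

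The PAR bZIP factors Dbp and Tef, which activate D-box output genes, did not pass in either sex. Dbp was 0.03, -0.38 and -0.78 with dexamethasone and 0.29, 0.13 and -0.46 with vehicle in female cells, and in male cells -0.64 to -0.49 with dexamethasone and -0.39 to 0.60 with vehicle. Its difference was -0.36 ± 0.29 in female (adjusted p = 0.634) and -0.64 ± 0.29 in male cells (adjusted p = 0.183), and all 6 same-numbered pairs were lower with dexamethasone. Tef was -1.73, -2.25 and -2.71 with dexamethasone and -2.24, -2.55 and -2.94 with vehicle in female cells, and -1.71, -1.51 and -2.0 with dexamethasone and -2.35, -2.95 and -2.35 with vehicle in male cells. Its difference was 0.34 ± 0.28 in female (adjusted p = 0.649 by limma) and 0.81 ± 0.28 in male cells (adjusted p = 0.0960), and all 6 same-numbered pairs were higher with dexamethasone. The pairs of Per1 and Arntl were also all higher, and those of Bhlhe41 all lower. The share of all probes whose pairs all go 1 way was not counted. The male groups of Dbp and Tef did not overlap. In all, the groups of 3 of 10 genes did not overlap in female cells (Per1, Clock and Bhlhe41) and of 5 in male cells (Per1, Arntl, Bhlhe41, Dbp and Tef), where 34.0% and 25.5% of all probes did not.

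The responses of the sexes were not shown to differ for any of the 10 genes. The female response minus the male one ran from -0.81 ± 0.52 for Per2 (95% interval -1.94 to 0.33) to 0.49 ± 0.56 for Bhlhe41 (95% interval -0.73 to 1.72), and no gene was called by limma, where 0.107% of probes were. None had an unadjusted p under 0.05 either, where 11.8% of probes did. Within a treatment the sexes lay on different slides, so a difference in level cannot be assigned to sex rather than slide. Female minus male levels under vehicle ran from -0.65 ± 0.39 for Bhlhe41 to 0.51 ± 0.36 for Per2. No clock gene was called there, although 13.9% of all probes were. Per2 was 0.082 in that comparison without male vehicle replicate 2 (adjusted p = 0.887) and 0.96, past the threshold, without replicate 3 (adjusted p = 0.0436). Under dexamethasone the sex difference ran from -0.49 ± 0.28 for Tef to 0.52 ± 0.45 for Nr1d1, again with no clock gene called where 3.01% of probes were. None of the 10 genes had an unadjusted p under 0.05 in either comparison of the sexes, where 30.1% of probes did under vehicle and 18.6% under dexamethasone.

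Nr1d1 differed by replicate number over the 12 arrays, a pattern noticed after the values were seen and not called once slide was in the model. Nr1d1 was lowest on the array numbered 3 in all 4 groups, and Cry1 and Clock were highest on it in all 4. Over all probes 2.93% were lowest and 3.34% highest on replicate 3 in all 4 groups. Replicate 3 minus the mean of replicates 1 and 2 was -1.03 ± 0.11 for Nr1d1, 0.45 ± 0.14 for Cry1 and 0.26 ± 0.11 for Clock. A limma F test of the replicate number over all 12 arrays, with the groups in the model, gave an adjusted p of 0.0283 for Nr1d1, 0.287 for Cry1 and 0.374 for Clock, where 0.794% of probes were called. The test took the arrays as independent, although arrays of the same number deviated together within each sex, so its p-values may be too small. It also took a number to mean the same in both sexes, which the labels do not state. With slide also in the model the value of Nr1d1 was -1.12 ± 0.13, with an adjusted p of 0.175 by limma, and no probe was called although 3251 had an unadjusted p under 0.05. The labels do not say what a replicate number stands for, such as a day, an animal or a time of isolation.

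**Figure D3:**
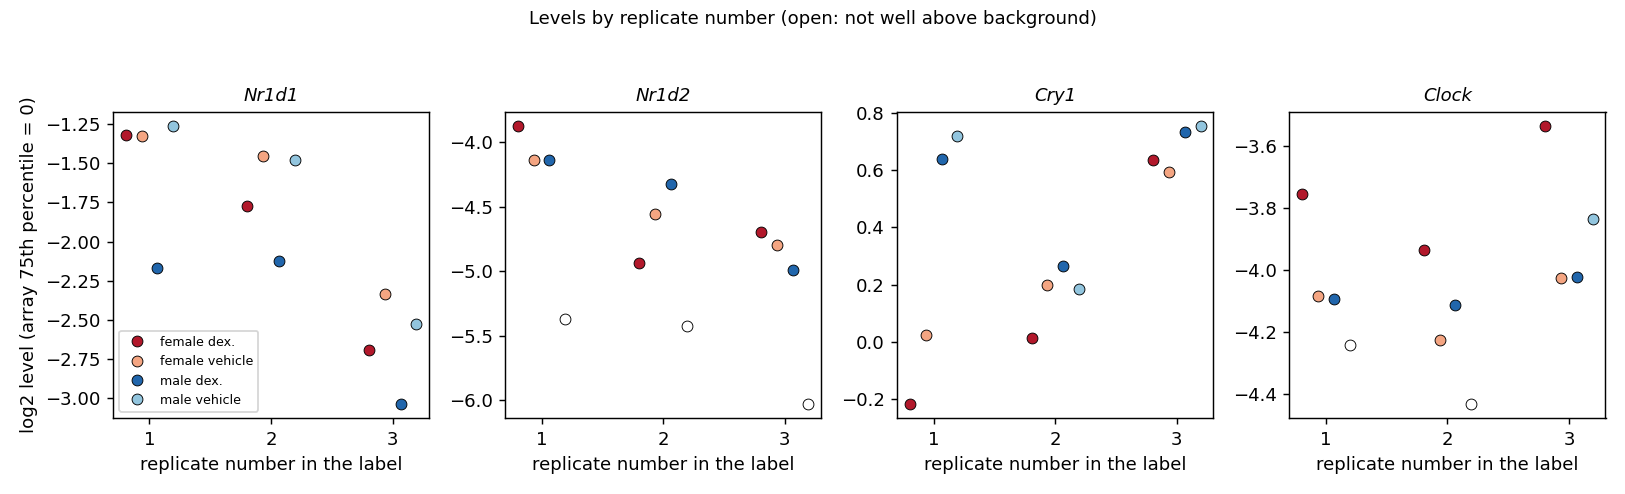
log2 level of Nr1d1, its paralog Nr1d2, Cry1 and Clock on each array (vertical axis, relative to the array's 75th percentile) against the replicate number in the label, with female dexamethasone, female vehicle, male dexamethasone and male vehicle from left to right at each number. Nr1d1 lies between -3.04 and -2.34 on the 4 arrays numbered 3 and between -2.17 and -1.26 on the other 8; open symbols were not well above background.

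The other genes of the loop were taken from a list of 20, of which 16 were on the array and 14 passed the filter. In female cells 1 of the 14 rose and 13 did not pass, where 2.72% of all probes were called higher and 1.07% lower. In male cells 2 rose and 12 did not pass, where 5.45% were called higher and 4.75% lower. None of the 14 fell. Usp2, a deubiquitinase that acts on clock proteins, rose in both sexes. Its level was -3.76, -3.29 and -3.56 with dexamethasone and -5.41, -5.31 and -5.53 with vehicle in female cells, a rise of 1.88 ± 0.26 (3.68-fold, adjusted p = 0.00319). In male cells it was -2.87, -1.94 and -2.44 with dexamethasone and -5.27, -5.31 and -5.92 with vehicle, where no vehicle array was well above background. In the main processing the male group means therefore differed by at least 2.90-fold, a bound that carries no sampling error. The fitted difference was 3.09 ± 0.26 (adjusted p = 0.000154 by limma). A level not well above background counts in such a bound as the higher of its own value and the lowest level well above background on that array. With slide as a block the rise was 2.00 ± 0.33 in female (adjusted p = 0.0399) and 2.64 ± 0.33 in male cells (adjusted p = 0.0144). Within slide 3 (female cells) and slide 1 (male cells) it was 2.00 ± 0.23 and 2.64 ± 0.46. Under normexp it was 0.96 in female and 1.22 in male cells. That male value is smaller than the bound, so the bound does not hold for every background correction. Usp2 was also lower in female than in male cells under dexamethasone, on arrays of different slides, with a difference of -1.12 ± 0.26 (adjusted p = 0.0434). That call missed the threshold under a slide block (-1.17 ± 0.44, adjusted p = 0.421), with the 2 groups alone (0.0673), without the filter on dim probes (0.0726) and on leaving out any female array (0.0577 to 0.137) or male dexamethasone replicate 2 (0.108) or 3 (0.109). Since the male rise of Usp2 is known only as a lower bound, its responses are not set against each other between the sexes.

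Rora, the ROR receptor that activates Arntl, was -1.99, -1.91 and -1.68 with dexamethasone and -2.51, -2.42 and -2.43 with vehicle in female cells. Male cells had -1.73, -1.68 and -1.90 with dexamethasone and -2.35, -2.76 and -2.27 with vehicle. The groups did not overlap in either sex, and the difference passed in male cells (0.69 ± 0.16, adjusted p = 0.0263) and not in female cells (0.60 ± 0.16, adjusted p = 0.0764, and 0.0793 with the replicate number as a block). The male call missed the threshold under a slide block (0.73 ± 0.26, adjusted p = 0.181), under normexp (0.17, adjusted p = 0.419) and with array weights (adjusted p = 0.110). It also did with the 2 male groups alone (0.185) and without male dexamethasone replicate 1 (adjusted p = 0.0603) or replicate 2 (0.0854). Within slide 1 the male difference of Rora was 0.73 ± 0.43. Nr1d2, the paralog of Nr1d1, was -3.87, -4.94 and -4.70 with dexamethasone and -4.13, -4.56 and -4.80 with vehicle in female cells. In male cells it was -4.14, -4.33 and -4.99 with dexamethasone and -5.37, -5.43 and -6.03 with vehicle, none of which was well above background. The lowest levels that count as well above background on the male vehicle arrays lie, on average, above the Nr1d2 means of the other groups, so no fold and no order is given for Nr1d2 against male vehicle. The fit to those levels gave an adjusted p of 0.0524 for male dexamethasone against male vehicle, and 0.0117 with the replicate number as a block.

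The remaining 11 of these genes did not pass in either sex without a block. Bhlhe40, the paralog of Bhlhe41 that encodes DEC1, differed by -0.70 ± 0.38 in female and -0.72 ± 0.38 in male cells, with all 6 same-numbered pairs lower with dexamethasone. The pairs of Timeless were also all lower, and those of Usp2, Rora and Cry2 all higher. After these pairs, Bhlhe40 was also fitted with blocks. Bhlhe40 passed with a replicate block within each sex (adjusted p = 0.0347 in female and 0.0196 in male cells by limma) and not with the planned block over all 4 groups (0.292 and 0.177). Cry2, a paralog of Cry1, differed by 0.27 ± 0.32 in female and 0.89 ± 0.32 in male cells, and was well above background on 1 of 3 male vehicle arrays. Nfil3, which represses the D-box genes, differed by 0.29 ± 0.26 in female and 0.14 ± 0.26 in male cells. Btrc and Fbxw11, subunits of the ligases that mark PER proteins for decay, had levels of -7.84 and -2.62 on female vehicle replicate 2, against -2.72 and -2.87 for Btrc and 2.58 and 2.43 for Fbxw11 on replicates 1 and 3. Both spots lay among the cluster of low spots on that array. Without it the female difference was -0.02 ± 0.27 for Btrc and -0.33 ± 0.23 for Fbxw11, beside 1.66 ± 1.05 and 1.38 ± 1.05 with it. A dimmer Fbxw11 probe was not among the low spots. Between same-numbered arrays it differed by 0.10, -0.21 and -0.06 in female cells and by 1.87, 0.87 and -0.04 in male cells. It was well above background on 1 of 3 male vehicle arrays.

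**Figure D4:**
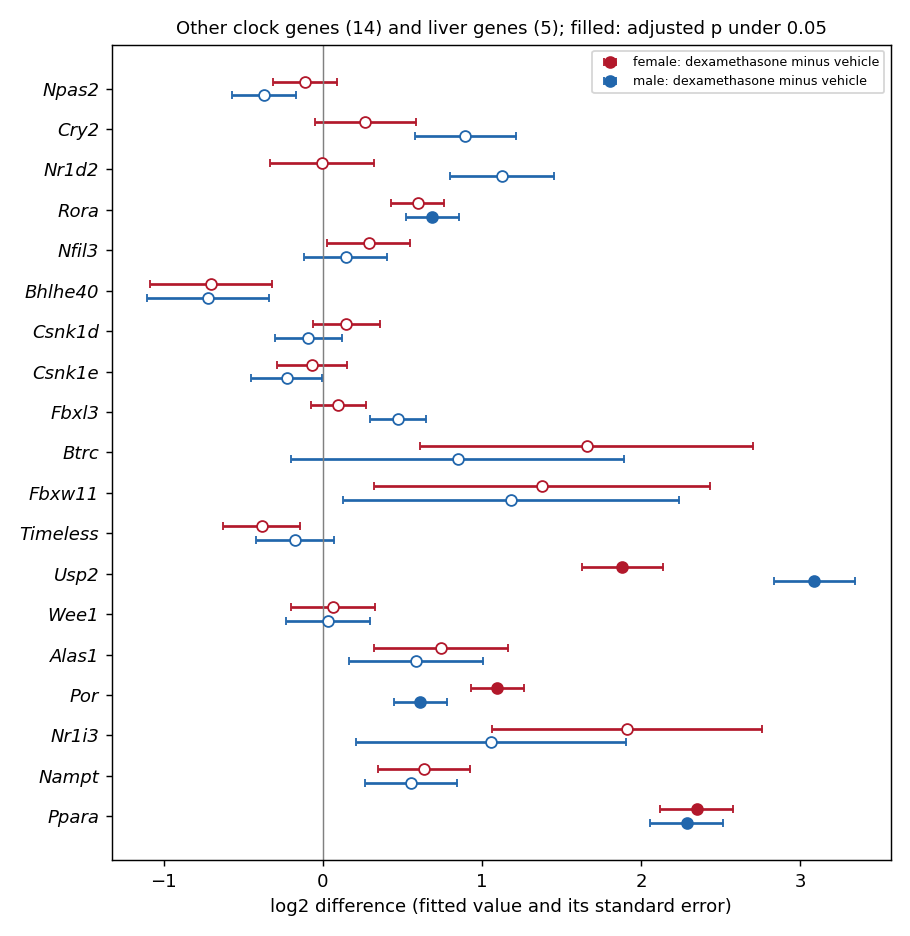
Fitted log2 difference, dexamethasone minus vehicle, with its standard error, in female cells (upper point, red) and male cells (lower point, blue), for the 14 other clock genes (upper rows) and 5 liver genes linked to clock output (lower rows) that passed the filter. Filled points have an adjusted p under 0.05: Usp2, Por and Ppara in both sexes and Rora in male cells; Btrc and Fbxw11, with female vehicle replicate 2 included, have the widest bars of the clock genes.

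Liver genes known as outputs of the clock were taken from a list of 6, of which 5 passed the filter. Of these 2 rose in each sex, none fell and 3 did not pass, where 2.72% of all probes were called higher in female and 5.45% in male cells. Ppara, a nuclear receptor of fatty acid use whose rhythm depends on the clock, was -0.84, -0.81 and -1.35 with dexamethasone and -3.44, -3.01 and -3.59 with vehicle in female cells. In male cells it was -1.05, -0.60 and -0.83 with dexamethasone and -3.43, -3.01 and -2.89 with vehicle, 1 of which was not well above background. It rose by 2.35 ± 0.23 in female (5.09-fold, adjusted p = 0.000441) and by 2.28 ± 0.23 in male cells (4.87-fold, adjusted p = 0.000540). Within slide 1 the male difference was 2.06 ± 0.44.

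Por, the reductase that supplies electrons to cytochromes P450, was 4.09, 4.55 and 4.12 with dexamethasone and 3.11, 3.25 and 3.11 with vehicle in female cells, and 4.20, 4.32 and 4.15 with dexamethasone and 3.76, 3.42 and 3.64 with vehicle in male cells. It rose by 1.10 ± 0.17 in female (adjusted p = 0.00604) and 0.61 ± 0.17 in male cells (adjusted p = 0.0409). With slide as a block Por missed the threshold in both sexes (adjusted p = 0.0822 in female and 0.275 in male cells). In male cells it was also lost with array medians (0.0835), normexp (0.0783), array weights (0.193) or the 2 male groups alone (0.196). Leaving out any array but male vehicle replicate 1 or female dexamethasone replicate 2 lost it too (adjusted p 0.0515 to 0.124 over these 10). Within slide 1 the male difference of Por was 0.59 ± 0.41. Alas1, Nampt and Nr1i3 differed by 0.74, 0.64 and 1.91 in female cells and by 0.59, 0.55 and 1.06 in male cells and did not pass, though Nr1i3 did in female cells with a replicate block within each sex (adjusted p = 0.0288). Nr1i3 was well above background on 2 of 3 female and 1 of 3 male vehicle arrays, so its differences rest in part on unmeasured levels.

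The named genes whose levels ran most like those of 3 members over the 12 arrays were looked up among 10615 probes well above background on every array. For Per1 they were Chd7 (Pearson r = 0.956), Hapln2 (0.953) and Ankrd33b (0.945). For Arntl they were Bcs1l (0.920), Lmo4 (0.916) and Slc25a20 (0.901), and for Nr1d1 they were Lancl1 (0.936), Ahsg (0.924) and Gfra3 (0.922). These are the highest of many correlations over arrays that share groups and slides, and are given as a description.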

How the data were processed

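RNA of 12 hepatocyte samples (4 groups of 3) was read on 1-colour rat arrays. The deposited files hold the Cy3 processed signal intensity of each spot, made by the authors with Agilent Feature Extraction 9.5 (per the submitters' processing notes; 9.5.3.1 per the file headers). The deposited value table equals that intensity in 540216 of 540216 cells (relative tolerance 1e-06). Arrays carry no read depth, so precision rests on the number of arrays and on signal over background.

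From the intensities the spots of a probe were averaged, log2 was taken and each array's 75th percentile subtracted. A probe entered the fit if every array of some group read it well above background, which kept 30979. Names came from the RefSeq table for 19861 probes and from the files for 21151. One model of the 4 group means, without a block, was fitted over all kept probes with limma 3.58.1 (R 4.3.3, lmFit and eBayes), with Benjamini-Hochberg adjustment over all probes and a threshold of 0.05. The fit was also tried on simulated data, drawn as independent arrays without slide or replicate effects. The 5 comparisons were the response of each sex, the difference of these responses and the sex difference under vehicle and under dexamethasone.

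Deviations from the group means correlated between arrays of the same replicate number, by 0.27 to 0.43 in female and 0.27 to 0.46 in male cells over all probes, so the numbers pair the arrays within a sex. Within a sex all correlations between different numbers were below 0, which centring each group on its mean largely builds in and which adds no support. The pairing comes from the data, as the labels do not state it. Across the sexes the same-numbered correlations were 0.02 to 0.11 under vehicle and 0.17 to 0.21 under dexamethasone. Female vehicle replicate 3 correlated more with a male vehicle array of another number (0.05) than with that of its own number (0.04).

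The genes named are the 10 members, the called genes of 2 further lists and, for 3 members, the 3 named genes with the highest correlation. Examples among uncalled genes, the count of low spots the test of the replicate number and the block within each sex were chosen after values were seen. The members and lists were chosen with earlier results of these data known. Alternatives tried were other scalings, background corrections and filters, slide and replicate blocks, array weights and leaving out each array.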

Additional observations from a re-analysis of the deposited data

How the results depend on the processing

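The number of clock genes called was 3 in male and 1 in female cells. It was 0 in both with slide as a block, and 0 with the 2 male groups alone, where 335 of 30979 probes were called. With array weights it was 2 in female and 1 in male cells, where 5330 and 1204 of all probes were called. Within slide 1 or slide 3 a group had only 1 array, so calls there are not counted. With slide as a block each response rests on those same arrays, so little can be read from its count of 0. Leaving out 1 array gave 0 to 1 in female and 1 to 4 in male cells, where 333 to 1565 and 1428 to 4146 of all probes were called. With the replicate block it was 1 in female and 3 in male cells, where 1683 and 3975 of all probes were called. There Nr1d1 (adjusted p = 0.0193 by limma) stood in place of Arntl (0.0551). With a replicate block within each sex, added after seeing the data, it was 2 and 3, where 1996 and 4905 of all probes were called. The sex difference under vehicle had 2 called genes (Per3 and Clock) under normexp, where 13784 of 30979 probes were called. It had 0 to 1 on leaving out an array, where 1973 to 5191 of all probes were called. The other 2 comparisons had 0 under all alternatives run.

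Some differences that had not passed changed sign. In male cells Clock was -0.016 with array medians, -0.11 with quantile normalization and -0.43 with normexp, Per3 was -0.21 with normexp, and Cry1 was 0.017 with quantile normalization, 0.084 with slide as a block and within slide 1, and 0.055 with array weights. In female cells Per3 was 0.23, Nr1d1 0.41 and Dbp 0.082 with slide as a block and within slide 3, and Per2 was -0.016 with array weights. The female minus male response of Per1 was -0.030 with normexp, -0.13 with slide as a block and within slides 1 and 3, and -0.19 with array weights. The sex difference of Tef under dexamethasone was 0.068 with slide as a block. Leaving out 1 array gave -0.38 to 0.052 for Cry1, -0.54 to 0.16 for Nr1d1, -0.034 to 0.21 for Per2 and -0.23 to 0.19 for Per3 in female cells, -0.036 to 0.26 for Clock and -0.19 to 0.13 for Cry1 in male cells, and -0.17 to 0.25 for the Per1 difference. The cause was not tested.

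Over all probes 1173 were called in female and 3159 in male cells. With slide as a block 288 and 599 were, with array weights 5330 and 1204, and with each sex alone 3070 and 335. Quantile normalization gave 630 in female cells and no filter 12563 in male cells. The difference of responses had 33 (320 with quantile normalization, 651 without male vehicle replicate 3, 3 with the replicate block), the sex difference under vehicle 4318 (186 with slide as a block, 13784 with normexp) and under dexamethasone 932 (36 with slide as a block, 1765 with the replicate block). Under normexp the median of all probes was -0.24 in male cells, against -0.05. Signal over background limits dim probes such as those of Clock, Per3, Cry2 and Nr1i3, which 2 of 3 male vehicle arrays did not measure.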

Other observations

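On the array of female vehicle replicate 2 the low spots formed 1 area, with 98.9% of the 176 spots inside it. The spots of all 13 clock gene probes lay outside it, among them that of Bhlhe41 at 16 rows and 28 columns and that of Per1 at 42 rows and 13 columns from its middle. Without that array Per1 differed by 1.15 ± 0.29 in female cells (adjusted p = 0.0625 by limma) and Usp2 by 1.94 (adjusted p = 0.00925).

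The replicate term was called for 246 probes over all 12 arrays, taken as independent, without a slide term, and 4741 probes had an unadjusted p under 0.05. Per1, which rose in both sexes, had an adjusted p of 0.185 for the replicate number, with replicate 2 lower than replicate 1 by a difference of -0.54.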
